A study of Homo sapiens with 6 samples.

Results

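The genes described here are 10 transcription factors and markers of the mesenchymal state: ZEB1, ZEB2, SNAI1, SNAI2, TWIST1, TWIST2, PRRX1, VIM, FN1 and S100A4. A gene was taken in where the platform annotation gave its symbol as the single symbol of an array feature. Where there were several, the one whose mean over the 6 arrays was highest was used. All 10 had such a feature, of 14884 genes in all. They were measured in SUM159 cells, a human cell line from a triple-negative breast carcinoma that is classed as claudin-low, on 6 single-colour arrays of total RNA. Per the labels, 3 samples came from cells treated with 1 µM decitabine for 72 h under daily medium changes, and 3 came from cells kept 72 h without the drug (untreated). No label says if the untreated medium held the drug's solvent, and titles of untreated samples also carry the dose, which was not read as a treatment. All values come from a single line, and no label says that the samples were cultured apart, so the p-values reflect the spread between these samples alone, which may be technical.

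In the epithelial-mesenchymal transition, epithelial cells lose their junctions and take on a migratory, matrix-producing form. The zinc finger proteins ZEB1, ZEB2, SNAI1 (Snail) and SNAI2 (Slug) and the basic helix-loop-helix proteins TWIST1 and TWIST2 drive it, in part by repressing epithelial genes through E-box sequences, and the homeobox factor PRRX1 acts beside them. VIM (vimentin, an intermediate filament protein), FN1 (fibronectin, a matrix glycoprotein) and S100A4 (a calcium-binding protein also called FSP1) are read as markers of the mesenchymal state. Decitabine, an analogue of deoxycytidine, is incorporated into DNA and traps DNA methyltransferases, so that CpG methylation is lost as cells divide. The comparison asks which of these genes differ in expression after the drug.

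After decitabine, ZEB1 and ZEB2 were lower, SNAI1, TWIST2 and S100A4 were higher, and the other 5 genes did not pass the test. The 5 changes ran from -0.61 (ZEB2) to 1.39 (S100A4) on the log2 scale. The share of all genes that changed by more in either direction ran from 2.26% (S100A4) to 17.5% (ZEB1). In the limma fit with the replicate number as a block, 3 of the 10 genes rose and 2 fell at an adjusted p under 0.05, where 13.2% of all 14884 genes passed (7.79% higher and 5.37% lower). The median change of the 10 genes was 0.10, against -0.02 for all genes. Adjusted p-values of the 5 lay between 0.0226 and 0.0479, close to the threshold. In the limma fit without the block none of the 10 passed, where 3.03% of all genes did (2.01% higher and 1.02% lower), and 4 (VIM, SNAI1, TWIST2 and S100A4) had an unadjusted p under 0.05, as did 13.9% of all genes. The 3 decitabine values lay wholly on 1 side of the 3 untreated values for 3 of the 10 genes (SNAI1 and TWIST2 above, VIM below), against 20.1% of all genes (11.3% above and 8.74% below). All 3 pairs shared a direction for 6 of the 10 genes, the 5 that passed and VIM, against 44.8% of all genes.

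**Figure D1:**
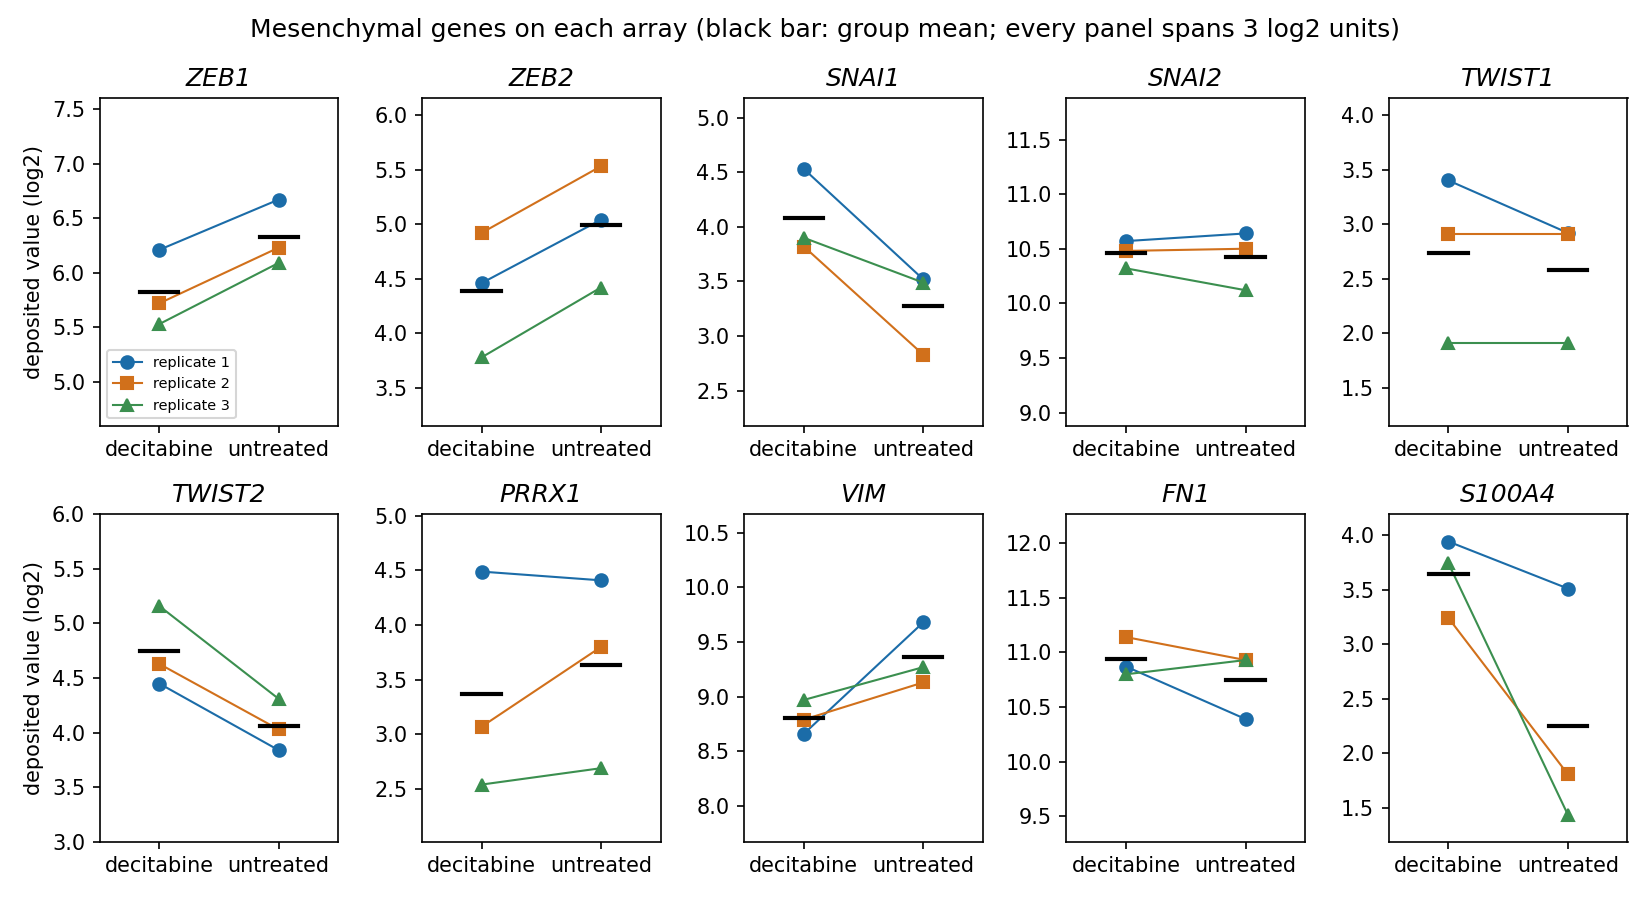
Deposited values (vertical axis, log2) of the 10 genes on the 3 decitabine and 3 untreated arrays, with a line joining arrays of the same replicate number, a black bar at each group mean and a span of 3 log2 units in every panel. The lines of ZEB1 and ZEB2 run parallel, with untreated above decitabine, while SNAI1, TWIST2 and S100A4 lie higher in decitabine in all 3 pairs.

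Arrays with the same replicate number deviated together, with correlations of 0.682, 0.595 and 0.558 (all genes, after subtraction of the group means). Decitabine and untreated arrays of different numbers had -0.483 to -0.00622. Subtracting group means pushes the different-number correlations down where the same-number ones are positive, so part of that gap is built in. Replicate 1 had higher array medians (all features) than the others, 2.98 in decitabine and 3.03 in untreated cells, against 2.29 to 2.42 on the other arrays. Same-numbered arrays held exactly equal values for 5.15%, 5.87% and 6.16% of genes, against 0.47% to 1.07% for other array pairs. Whether this arose in the cultures or in the array processing was not tested. The log base of the deposited values is not stated. They were read as log2 because they ran from 0.17 to 12.89 with 2 decimals, and every change and fold rests on that reading.

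Start regions were read for their CpG content, since the drug acts on DNA methylation. Promoter windows of RefSeq (GRCh38.p14), cut to the 250 bases before the annotated start, matched 7 of the 10 genes. SNAI1 and TWIST1 had no match, and SNAI2 was not looked up. ZEB2 (chr2:144520120-144520369, minus strand), TWIST2 (chr2:238847835-238848084, plus strand) and S100A4 (chr1:153545807-153546056, minus strand) are shown because they changed and have a single window each, with every CpG, the dinucleotide that carries DNA methylation, in capitals.
ZEB2: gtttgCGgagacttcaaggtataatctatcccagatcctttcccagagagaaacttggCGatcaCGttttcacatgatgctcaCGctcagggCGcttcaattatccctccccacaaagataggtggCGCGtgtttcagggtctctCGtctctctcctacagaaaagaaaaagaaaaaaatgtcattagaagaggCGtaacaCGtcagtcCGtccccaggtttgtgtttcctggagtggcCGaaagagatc
TWIST2: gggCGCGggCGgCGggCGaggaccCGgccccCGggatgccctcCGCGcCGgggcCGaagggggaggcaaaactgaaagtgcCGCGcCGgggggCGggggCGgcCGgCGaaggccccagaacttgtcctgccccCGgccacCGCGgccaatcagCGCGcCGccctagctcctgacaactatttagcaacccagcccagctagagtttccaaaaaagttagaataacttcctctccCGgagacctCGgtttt
S100A4: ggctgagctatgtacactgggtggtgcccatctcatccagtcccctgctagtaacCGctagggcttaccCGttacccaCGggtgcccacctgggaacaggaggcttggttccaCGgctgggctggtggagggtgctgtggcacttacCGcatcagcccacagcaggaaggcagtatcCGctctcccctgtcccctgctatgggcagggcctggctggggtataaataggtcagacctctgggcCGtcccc
The TWIST2 window holds 26 CpGs, more than most, since 82.3% of the 35116 windows hold as many or fewer. The ZEB2 window holds 12, near the median of 11, and that of S100A4 holds 7, with 43.7% of windows at 7 or fewer. Among genes that did not pass the test, the window of FN1 holds 32 CpGs, that of VIM 8 and that of PRRX1 6. ZEB1 has 7 windows, with 7 to 27 CpGs. Methylation was not measured, so these counts describe the sequence alone.

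ZEB1 (Entrez Gene 6935, chromosome 10) was lower after decitabine in all 3 pairs and by nearly the same amount. Its values were 6.21, 5.72 and 5.53 in decitabine replicates 1, 2 and 3, against 6.67, 6.23 and 6.09 in the untreated ones. The groups overlapped, because the decitabine value of replicate 1 lay above the untreated value of replicate 3, but within each pair decitabine was lower, by -0.46, -0.51 and -0.56. The change was -0.51 (SE 0.12, 95% interval -0.80 to -0.22), or 1.42-fold lower, with a limma adjusted p of 0.0438 with the block and 0.480 without it. ZEB1-AS1, a noncoding RNA that overlaps the gene, had 3.51 in decitabine and 3.74 in untreated cells, a change of -0.23 (SE 0.13, adjusted p = 0.303).

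ZEB2 (Entrez Gene 9839, chromosome 2), the paralogue of ZEB1, showed the same order. Decitabine replicates 1, 2 and 3 had 4.46, 4.92 and 3.78, against 5.04, 5.53 and 4.42 in untreated cells. Replicates of a group spread over 1.14 in decitabine and 1.11 in untreated cells, whereas the pair differences of -0.58, -0.61 and -0.64 spread over 0.06. ZEB2 therefore passed the test only where the replicate number was in the fit: the change was -0.61 (SE 0.12, 95% interval -0.90 to -0.32), 1.53-fold lower, with a limma adjusted p of 0.0261 with the block and 0.604 without it. The overlapping noncoding RNA ZEB2-AS1 had 4.43 in decitabine and 4.78 in untreated cells, a change of -0.35 (SE 0.13, adjusted p = 0.156).

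The miR-200 family represses ZEB1 and ZEB2 by pairing with their transcripts, and ZEB proteins in turn repress the miR-200 genes. The mature sequences from RefSeq (GRCh38.p14) are shown because this loop is the best known control of the ZEB genes, with the seed (bases 2 to 8) in capitals, in which the first 3 share a seed and the other 2 share another.
hsa-miR-200b-3p: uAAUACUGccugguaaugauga
hsa-miR-200c-3p: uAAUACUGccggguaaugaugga
hsa-miR-429: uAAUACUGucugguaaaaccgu
hsa-miR-200a-3p: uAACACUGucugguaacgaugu
hsa-miR-141-3p: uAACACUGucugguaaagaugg
None of the 5 genes passed the test, and neither did MIR205, whose product also targets ZEB transcripts. MIR200C was nearest, at 1.62, 1.01 and 0.49 in decitabine, against 1.96, 1.57 and 1.03 in untreated cells, a change of -0.48 (SE 0.12, limma adjusted p = 0.0589). Changes of MIR200A, MIR200B, MIR141 and MIR429 ran from -0.04 (MIR429) to 0.32 (MIR200B), with adjusted p-values of 0.267 to 1. Except for MIR200B on both replicate 3 arrays (4.07 in decitabine and 3.42 in untreated cells), these 5 features lay below the median of all features on their array. MIR205 stood at 6.18 in decitabine and 6.04 in untreated cells, a change of 0.14 (SE 0.18, adjusted p = 0.655). The features carry the names of the miRNA genes, so levels of the mature miRNAs cannot be read from them.

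SNAI1 (Entrez Gene 6615, chromosome 20), which binds E-boxes and represses epithelial genes early in the transition, was higher after decitabine. It had 4.53, 3.82 and 3.90 in decitabine replicates 1, 2 and 3, against 3.52, 2.83 and 3.49 in untreated cells. Every decitabine value lay above every untreated value, and the pair differences were 1.01, 0.99 and 0.41. SNAI1 rose by 0.80 (SE 0.16, 95% interval 0.40 to 1.20), or 1.75-fold (limma adjusted p = 0.0298 with the block and 0.241 without it).

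SNAI2 (Entrez Gene 6591, chromosome 8) had the smallest change of the 10, and 89.3% of all genes changed by more in either direction. Its values were 10.57, 10.48 and 10.32 in decitabine, against 10.64, 10.50 and 10.12 in untreated cells. The groups overlapped and the pairs did not share a direction. The change was 0.04 (SE 0.13, limma adjusted p = 0.890) with a 95% interval of -0.27 to 0.35. SNAI3, the remaining member of the family, had 3.59 ± 0.75 in decitabine and 3.73 ± 0.97 in untreated cells (SD, n = 3 each), a change of -0.14 (limma adjusted p = 0.588).

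TWIST2 (Entrez Gene 117581, chromosome 2), a bHLH factor of mesenchymal precursors, was higher after decitabine in all 3 pairs. Values of 4.45, 4.63 and 5.16 in decitabine stood against 3.84, 4.03 and 4.31 in untreated cells. The groups did not overlap, and the pair differences were 0.61, 0.60 and 0.85. TWIST2 rose by 0.69 (SE 0.13, 95% interval 0.38 to 1.00), or 1.61-fold, with the lowest limma adjusted p of the set, 0.0226 with the block, and 0.258 without it. Its window, shown above, has the most CpGs among the printed ones (26). The window of FN1, which did not pass, holds 32, and a window of ZEB1, which fell, holds 27.

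TWIST1 (Entrez Gene 7291, chromosome 7), its paralogue, had 3.40, 2.91 and 1.91 in decitabine, against 2.92, 2.91 and 1.91 in untreated cells. The values of replicates 2 and 3 were equal in both groups to the 2 decimals deposited, and the single difference was 0.48 in replicate 1. Of all genes, 1.75% had exactly 2 such equal pairs. The change of 0.16 (SE 0.15, limma adjusted p = 0.548) had a 95% interval of -0.21 to 0.53. The TWIST1 feature was dim, below the array median on both arrays of replicate 3 and on untreated replicate 1.

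PRRX1 (Entrez Gene 5396, chromosome 1), a homeobox factor of embryonic mesenchyme, differed widely between replicate numbers. It had 4.49, 3.07 and 2.54 in decitabine, against 4.41, 3.80 and 2.69 in untreated cells, a change of -0.27 (SE 0.18, 95% interval -0.71 to 0.18, limma adjusted p = 0.406). Replicates spread over 1.95 in decitabine and 1.72 in untreated cells, and the pair differences of 0.08, -0.73 and -0.15 did not share a sign. Its paralogue PRRX2 had 3.66 ± 0.34 in decitabine and 3.42 ± 0.21 in untreated cells (SD, n = 3 each), a change of 0.24 (limma adjusted p = 0.419).

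**Figure D2:**
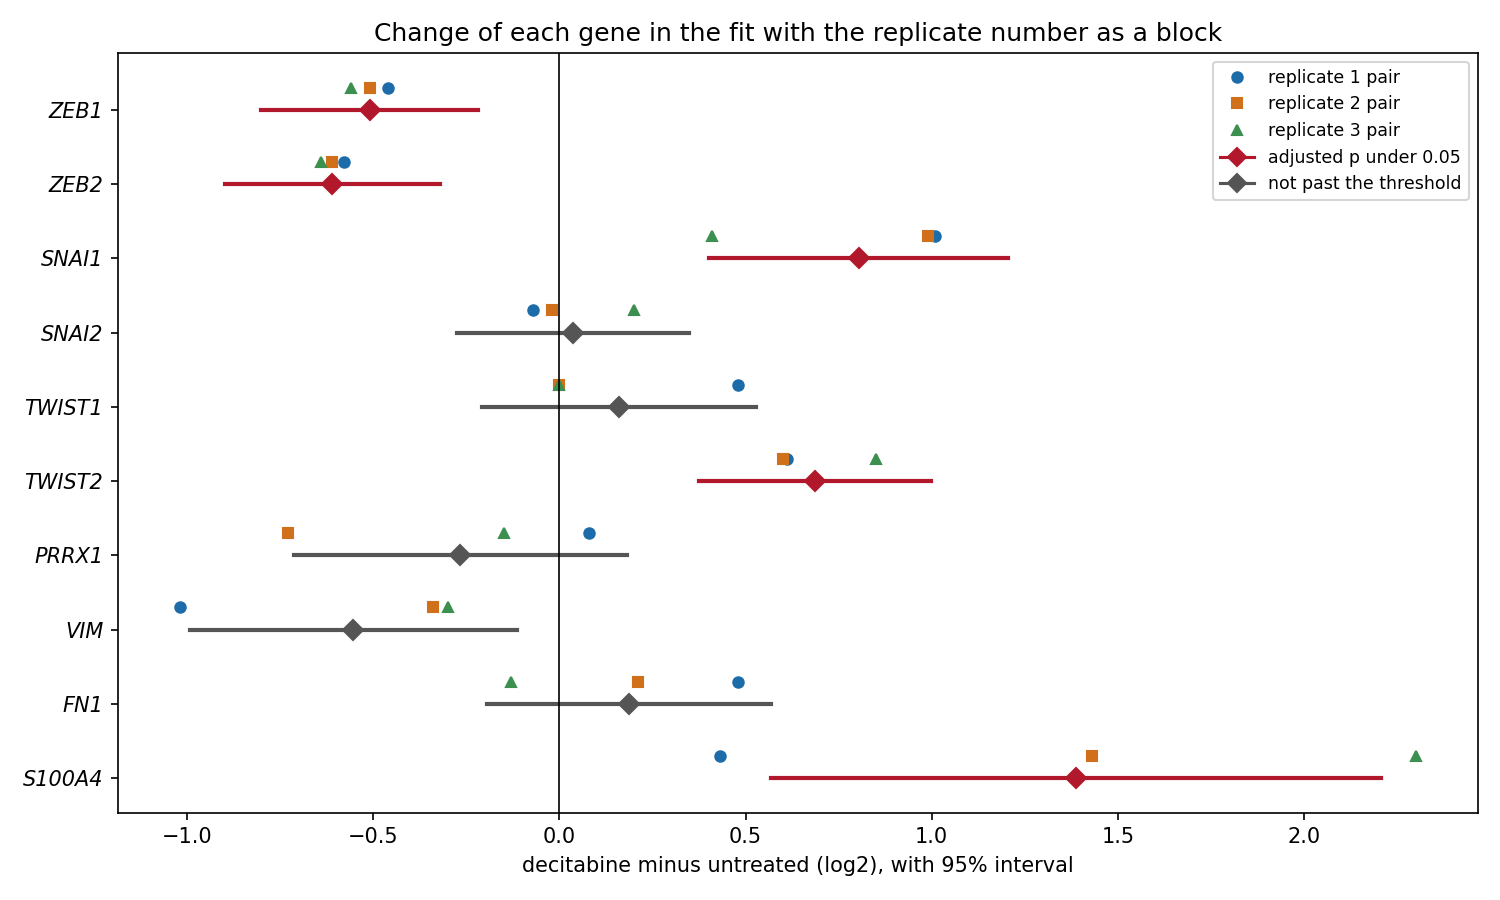
Change of each gene (horizontal axis, decitabine minus untreated, log2) with its 95% interval from the fit with the replicate number as a block, and the difference within each replicate pair as a small symbol above it. The intervals of ZEB1 and ZEB2 lie below 0 and those of SNAI1, TWIST2 and S100A4 above it, while VIM also lies below 0 but misses the adjusted threshold.

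VIM (Entrez Gene 7431, chromosome 10), the filament protein of mesenchymal cells, was among the brighter features, with 98.6% of genes at a lower untreated mean. It had 8.66, 8.79 and 8.97 in decitabine, against 9.68, 9.13 and 9.27 in untreated cells. All decitabine values lay below all untreated ones, but the pair differences of -1.02, -0.34 and -0.30 were uneven. The change of -0.55 (SE 0.18, 95% interval -0.99 to -0.11) did not pass after adjustment (limma adjusted p = 0.104 with the block and 0.317 without it). It passed under a variance prior that follows intensity and is robust to outlying genes (adjusted p = 0.0114).

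VIM was the single gene of the set with more than 1 feature. The second gave 8.66, 9.01 and 9.0 in decitabine, against 9.0, 9.45 and 9.30 in untreated cells. The third gave 8.56, 8.36 and 8.50 in decitabine, against 9.19, 8.38 and 8.80 in untreated cells. All 3 features were lower in decitabine in every pair, with mean changes of -0.55, -0.36 and -0.32, so they agreed in direction and differed in size. The large difference of replicate 1 in the first feature was smaller in the others, at -0.34 and -0.63. With the 3 features averaged, the change was -0.41 (adjusted p = 0.114).

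**Figure D3:**
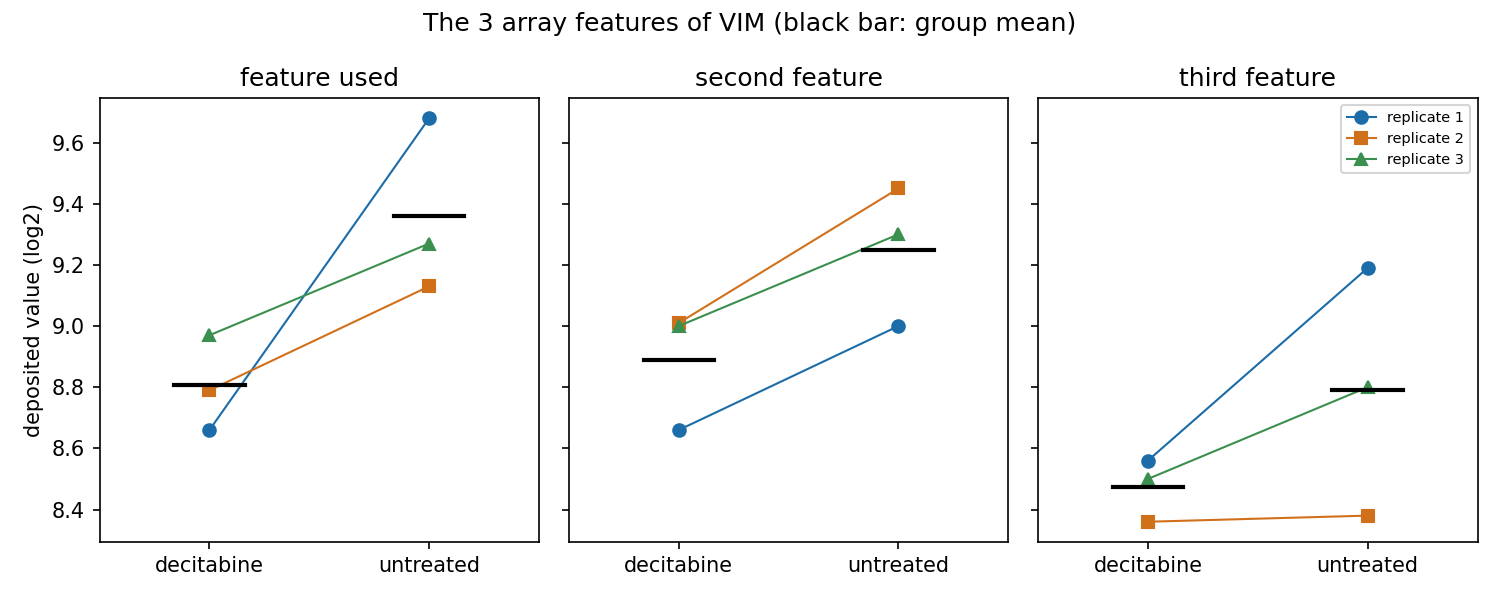
Deposited values (vertical axis, log2) of the 3 VIM features on the 3 decitabine and 3 untreated arrays, with lines joining arrays of the same replicate number and black bars at the group means. Decitabine lies below untreated in every pair of every feature, by 0.02 in the pair with the smallest difference and by 1.02 in that with the largest.

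FN1 (Entrez Gene 2335, chromosome 2), a matrix glycoprotein that binds integrins, had 10.87, 11.14 and 10.80 in decitabine, against 10.39, 10.93 and 10.93 in untreated cells. Pairs 1 and 2 were higher in decitabine and pair 3 was lower. The change was 0.19 (SE 0.16, 95% interval -0.20 to 0.57, limma adjusted p = 0.499). Of 7 measured fibronectin receptors and assembly genes 1 rose and none fell, with a list median of -0.10 against -0.02 for all genes. The 1 was SDC2, a heparan sulfate proteoglycan of the cell surface, at 6.28 in decitabine and 4.74 in untreated cells, which rose by 1.54 (SE 0.13, adjusted p = 0.00245 with the block and 0.0742 without it).

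S100A4 (Entrez Gene 6275, chromosome 1) had the largest change of the 10, and only 2.26% of all genes changed by more in either direction. It had 3.94, 3.24 and 3.74 in decitabine, against 3.51, 1.81 and 1.44 in untreated cells. The groups overlapped through replicate 1, whose untreated value was far above the other untreated ones, and the pair differences of 0.43, 1.43 and 2.30 were all positive but unequal. S100A4 rose by 1.39 (SE 0.33, 95% interval 0.57 to 2.21), or 2.61-fold (limma adjusted p = 0.0479 with the block and 0.250 without it). Without the replicate 1 pair, the change was 1.87 (adjusted p = 0.130). In untreated replicates 2 and 3 the feature lay below the array medians of 2.42 and 2.29, so the size of the rise holds only for the deposited values, which carry no measure of background.

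S100A3, the next gene to S100A4 in RefSeq, was also higher after decitabine. It had 5.63, 5.75 and 5.69 in decitabine, against 4.73, 4.09 and 4.16 in untreated cells, and rose by 1.36 (SE 0.18, limma adjusted p = 0.00849 with the block and 0.0220 without it). S100A5, which overlaps S100A4, had 1.67 in decitabine and 1.66 in untreated cells, a change of 0.01 (SE 0.13, adjusted p = 0.962). Of 18 other S100 genes measured, 2 rose and 1 fell, with a median of -0.01. S100A14 rose by 0.56 (adjusted p = 0.0346, and 0.380 without the block), and S100A16 changed by -0.66 (adjusted p = 0.0233, and 0.126 without the block).

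Other genes of the mesenchymal state moved in both directions. Of 19 measured mesenchymal and matrix genes 6 rose, 2 fell and 11 did not pass, with a median change of 0.27 against -0.02 for all genes. Without the block 3 rose and 2 fell. For this and every other list, the shares over all genes were 7.79% higher and 5.37% lower with the block. Without it they were 2.01% and 1.02%. TNC, the matrix protein tenascin-C, had 6.44 ± 0.14 in decitabine and 8.31 ± 0.27 in untreated cells (SD, n = 3 each), a change of -1.87 (SE 0.14, limma adjusted p = 0.00157). FSTL1, a secreted glycoprotein, rose by 1.09 (SE 0.12, adjusted p = 0.00539, and 0.0542 without the block). The receptor kinase AXL was the other gene that fell (-1.79, adjusted p = 0.00138). The matricellular proteins CCN2 and THBS1 rose by 1.84 and 1.13 (adjusted p = 0.00585 and 0.00666). CDH1 and CDH2, the cadherins of the epithelial and mesenchymal states, were not analysed here.

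Among 26 measured factors otherwise linked to the transition 2 rose and 3 fell, with a median of -0.12, and without the block none rose and 1 fell. FOSL1, an AP-1 subunit, had 6.97 ± 0.11 in decitabine and 8.02 ± 0.16 in untreated cells (SD, n = 3 each), a change of -1.04 (SE 0.12, limma adjusted p = 0.00628, and 0.0328 without the block). SOX9, a factor of chondrocytes and of stem-like epithelial cells, rose by 1.13 (SE 0.19), and HMGA2, a chromatin protein, by 0.77 (SE 0.13). RUNX2, a factor of bone development, changed by -1.34 (SE 0.29) and FOXF2, a forkhead factor of mesenchyme, by -0.59 (SE 0.13). Adjusted p-values of these 4 were 0.0160 to 0.0397 with the block and 0.0629 to 0.489 without it.

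TGF-beta induces SNAI1, ZEB1 and ZEB2 through SMAD proteins, and BMPs can oppose it. Of 24 measured genes of the TGF-beta and BMP pathways 3 rose, 2 fell and 19 did not pass, with a median of -0.13. The BMP ligand BMP4 had 6.20, 5.09 and 5.68 in decitabine, against 3.11, 2.29 and 2.36 in untreated cells, and rose by 3.07 (SE 0.15), or 8.40-fold (limma adjusted p = 5.96e-04 with the block and 0.00421 without it). SMAD6, an inhibitor of BMP signalling, rose by 1.70 (SE 0.12, adjusted p = 0.00157, and 0.0158 without the block), and GREM1, a secreted BMP antagonist, by 1.59 (SE 0.15, adjusted p = 0.00309, and 0.0585 without the block). The antagonist NOG changed by -0.67 and the BMP effector SMAD1 by -0.58 (adjusted p of 0.0364 and 0.0373, and 0.194 and 0.371 without the block). TGFB1, TGFB2 and TGFB3 were not analysed here.

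Epithelial genes, some of them repressed by ZEB and SNAI proteins, rose in 13 of 38 cases and fell in none, with a median of 0.14. Of all genes, 7.79% rose and 5.37% fell. Without the block 5 rose, against 2.01% of all genes. A link to the changes of ZEB or SNAI genes was not tested. MARVELD2, a protein of tight junctions between epithelial cells, had 4.91, 4.73 and 4.25 in decitabine, against 2.97, 2.87 and 2.31 in untreated cells. It rose by 1.91 (SE 0.12, limma adjusted p = 0.00106). PKP2, a desmosome plaque protein, had 7.41 ± 0.18 in decitabine and 4.90 ± 0.50 in untreated cells (SD, n = 3 each), and JUP, the plaque protein plakoglobin, had 6.71 ± 0.37 in decitabine and 5.19 ± 0.28 in untreated cells. PKP2 rose by 2.51 (SE 0.17, limma adjusted p = 0.00130) and JUP by 1.52 (SE 0.13, adjusted p = 0.00245). ESRP2, a splicing regulator of epithelial cells, rose by 1.33 (SE 0.14, adjusted p = 0.00466), and CD24, a cell surface glycoprotein, by 1.89 (SE 0.14, adjusted p = 0.00157). Without the block CD24 did not pass (adjusted p = 0.257), and the other 4 did. Promoter windows matched 24 of the 38 epithelial genes, of which 13 hold the E-box CACCTG on either strand (as CACCTG or CAGGTG) in at least 1 window, as do 20.6% of all genes in the table. Among them were 6 of the 9 matched genes that rose and 7 of the 15 that did not pass. By window, 7 of 14 hold it for the genes that rose and 7 of 23 for the others, as do 17.5% of all windows. Of the 13 windows of the mesenchymal genes 3 hold it, 2 of ZEB1 and that of S100A4. Windows on chromosome 8 were not used for the listed genes, so ESRP1, GRHL2 and SNAI2 were not looked up. The shares over all genes and all windows include that chromosome. A match is a description of the letters, and binding was not measured.

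**Figure D4:**
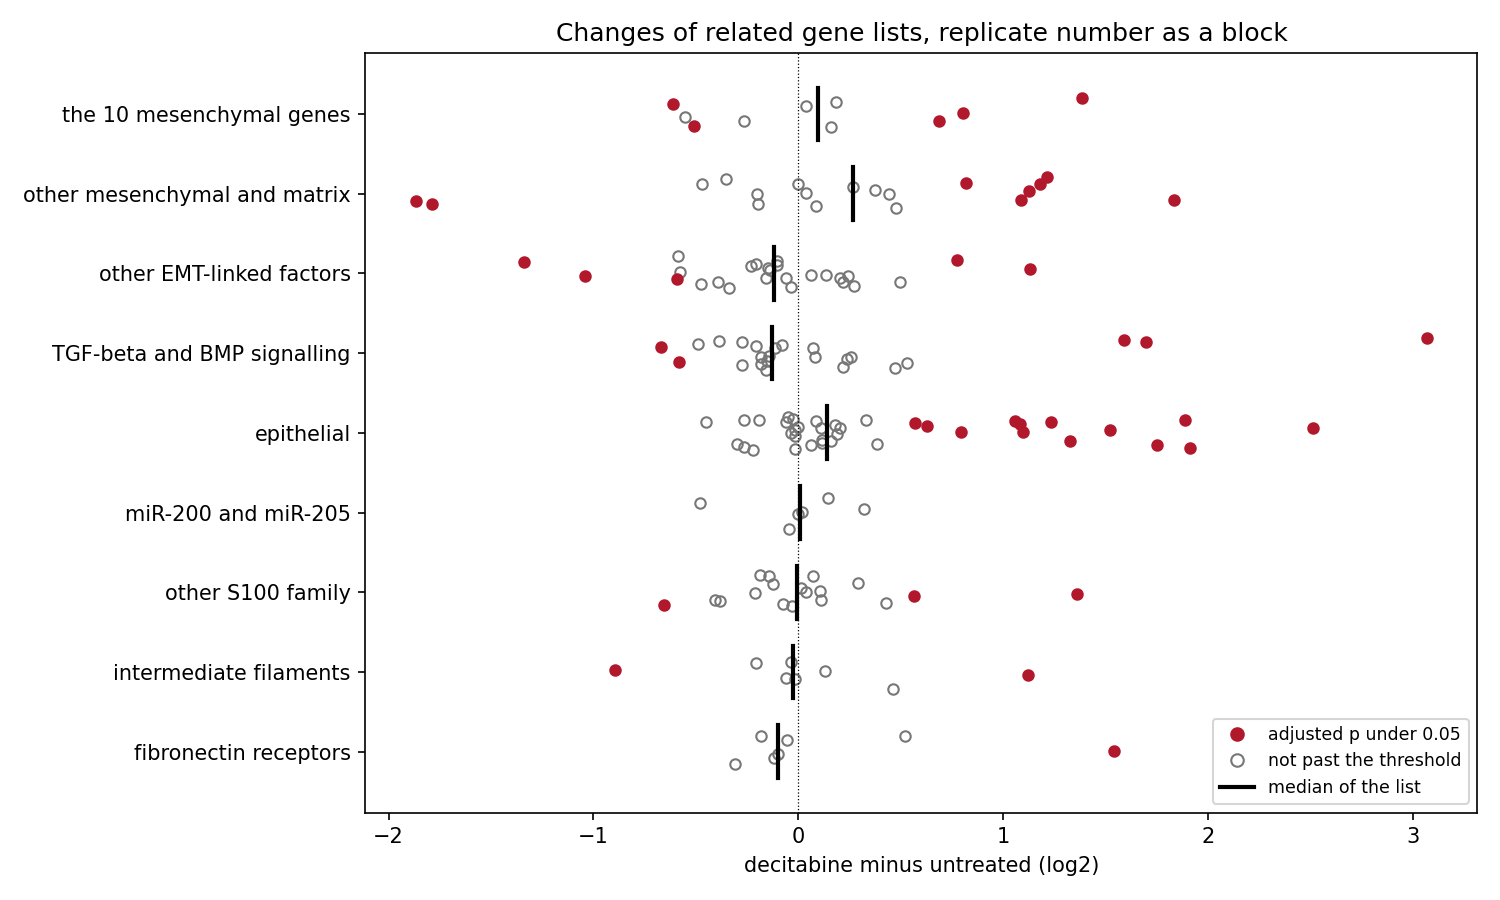
Changes (horizontal axis, decitabine minus untreated, log2) of the 10 mesenchymal genes and of related lists, 1 point a gene, filled where the adjusted p was under 0.05 in the fit with the block, with a black bar at the list median. Called genes lie on both sides of 0 for the 10 mesenchymal genes, the other mesenchymal genes, the other factors and the TGF-beta and BMP genes. They lie on the higher side alone for the epithelial genes and for the fibronectin receptors, where 1 gene was called.

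Of 8 measured intermediate filament, lamin and linker genes beside VIM 1 rose and 1 fell, with a median of -0.02. LMNB1, a lamin of the nuclear envelope, rose by 1.12 (SE 0.13, limma adjusted p = 0.00549, and 0.0335 without the block). DES, the muscle filament desmin, changed by -0.89 (SE 0.21, adjusted p = 0.0429, and 0.399 without the block).

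The label was checked against breast and other cell type markers. The hormone receptor ESR1 had 1.50 to 2.34 in decitabine and 1.78 to 2.43 in untreated cells. Like PGR, ESR1 lay below the median of all features on every array, and the features of VIM and CD44 lay well above it. The luminal markers XBP1, KRT8, KRT18 and GATA3 also lay above it on every array, as did CLDN3, CLDN7, EPCAM and EGFR. FOXA1 and CLDN4 lay on both sides of it, so these levels do not settle the class of the line. Of 7 luminal markers measured none rose and 1 (XBP1) fell, and of 7 claudin-low and basal markers 1 (EPCAM) rose and 1 (EGFR) fell. Without the block EPCAM did not pass (limma adjusted p = 0.127), while EGFR did (0.0195). Of 3 leukocyte markers measured CD14 rose by 0.72 (adjusted p = 0.0247, and 0.115 without the block), with summed values of 6.79 to 8.0 in decitabine and 5.87 to 7.71 in untreated cells. The sums given for marker lists add log2 values, so they are not summed expression levels. None of 4 endothelial markers passed, with sums of 11.56 to 12.16 in decitabine and 10.87 to 13.28 in untreated cells. CLDN5 lay above the array median on all arrays, and PECAM1, VWF and KDR lay on both sides of it. Of 3 fibroblast markers THY1 rose by 0.82 (adjusted p = 0.0130, and 0.473 without the block), with sums of 7.78 to 9.07 in decitabine and 6.81 to 9.08 in untreated cells. LUM and DCN, defining fibroblast markers, lay below the array median on all arrays, whereas THY1 lay above it on all arrays. The part of these markers in the results was not tested. In bulk RNA, fewer cells expressing a gene and less RNA per cell cannot be told apart.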

How the data were processed

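Gene expression was compared between SUM159 cells given 1 µM decitabine for 72 h (3 samples) and untreated ones (3 samples). Per the submitters' processing notes, the authors used the Transcriptome Analysis Console; version, normalization, filters and build were not given in the sources used. The deposited table was taken to hold log2 values, from its range. The treatment label gave the groups and the titles gave the replicate numbers. Of 48226 features 16098 carried a single symbol, updated by Entrez Gene ID through RefSeq, giving 14884 genes, and the feature with the highest mean stood for its gene.

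Groups were compared with limma 3.58.1 (lmFit, eBayes) in R 4.3.3 over all 14884 genes with the replicate number as a block, since the members' comparison is defined as paired, with two-sided tests, Benjamini-Hochberg adjustment and a threshold of 0.05. The titles give replicate numbers alone, so pairing by them is an assumption. Same-numbered arrays correlated in their deviations (0.558 to 0.682). The fit was tested on simulated data. The members, the 8 related gene lists and the 5 marker lists were chosen with earlier results of these data known, so no list was tested. All 10 members are described. From each related list up to 5 passing genes of lowest p are named, with genes that bear directly on a member. Passing genes of lists with at most 5 are named too, some after their values were seen. Arrays have no read depth, and their small number limits the precision. Alternatives were the fit without the block, quantile normalization, median centring, a filter on dim genes, all features, averaged features, another variance prior, and leaving out arrays.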

Additional observations from a re-analysis of the deposited data

How the results depend on the processing

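Without the replicate block, 451 genes passed in place of 1959 (299 in place of 1159 higher and 152 in place of 800 lower), all 451 of them also among the 1959, and 0 members in place of 5. With all 48226 features tested, 1 member passed, TWIST2 (1 higher and 0 lower), and ZEB1, ZEB2, SNAI1 and S100A4 had adjusted p-values of 0.0554 to 0.0908. Under quantile normalization, median centring, the mean of all features of a gene and the trended robust prior the 5 calls held; the trended prior also added VIM and gave 1249 lower genes. With the dimmer 50% of genes left out, S100A4, TWIST1 and PRRX1 were not tested, and the other 4 calls held. The changes kept their direction in these settings, 7 of them with the dimmer genes left out and all 10 in the others.

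When any single array or replicate pair was left out, limma with the block called 0 genes in all and 0 members (lowest and highest both 0), since 2 pairs leave 1 residual degree of freedom. Unadjusted p-values under 0.05 were then found for 2449 to 3514 genes and 4 to 6 members. Leaving out an array gave the same changes as leaving out its pair. SNAI2 ran from -0.045 without replicate 3, a change of sign, to 0.09 without replicate 1, and the other 9 genes did not change sign, with TWIST1 at 0 without replicate 1. S100A4 ran from 0.93 without replicate 3 to 1.87 without replicate 1, and VIM from -0.68 to -0.32. The change of S100A4 thus moved most with a single pair. No signal over background was available, so the precision of dim features such as TWIST1 and S100A4 in untreated cells is not known.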
